A study of Mus musculus with 3 samples.

Results

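The genes of fatty acid oxidation and of the peroxisome were examined in endothelial cells of the adult mouse kidney cortex. The set was written by function, but with earlier results of these data known. It holds 47 genes, namely enzymes that burn fatty acids in mitochondria and peroxisomes, acyl-CoA synthetases and peroxins. Of these, 44 had an array probeset of their own, out of 19938 genes on the array that did. Each gene was read at its probeset with the highest mean. Cpt1b shares its probeset with Gm44502 and Acsl3 shares one with Utp14b, and neither these nor Acsl1 were analysed here.

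The cells came from 3 samples, all of 1 group, called replicates 1, 2 and 3. Each sample was made from 1 kidney, not pooled, of an untreated adult Tie2-GFP mouse that carried the transgene Tg(TIE2GFP)287Sato on a mixed, mainly CD-1 background, of unknown sex. GFP in these mice is driven by the promoter of Tek (Tie2), so the sort took cells that use this promoter, and some blood cells are known to use it as well. The dissected cortex was digested in 1% collagenase, a mesh of 40 µm took out the glomeruli, and GFP-positive cells were sorted. With 1 group there was nothing to compare it with. The question asked of each gene was whether its mean signal lay above or below 100, the raw expression level that the study used as a filter. Both sides were tested with limma on log2 values, one-sided, adjusted by Benjamini-Hochberg across the 35557 probesets, and "above" and "below" refer to an adjusted p under 0.05. On the log2 scale the limit is 6.64. Probesets bind RNA with different strength, so signals are set against this limit and not ranked between genes.

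Fatty acids enter oxidation as acyl-CoA. Carnitine acyltransferases carry long chains into mitochondria, where dehydrogenation, hydration, a second dehydrogenation and thiolysis remove acetyl-CoA in cycles. Peroxisomes shorten very long and branched chains first and pass them on, and peroxins build the organelle and import its enzymes. In the kidney the proximal tubule is known as a tissue that lives largely on fatty acids, while endothelial cells are known to take up and pass on fatty acids and to oxidise some of them.

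Of the 44 measured genes, 28 were above a signal of 100, 8 were below it and 8 were neither. This is a share of 63.6% above, against 22.9% of all genes, and of 18.2% below, against 65.0% of all genes. Of 75 measured other genes of the pathway 26.7% were above and 52.0% below. These 75 include 15 regulators and textbook targets of PPAR and 2 ketone body enzymes, beside other oxidation and peroxisome genes. Since the set was chosen with earlier results of these data known, its shares are not independent evidence. The median of the mean log2 signal was 7.59 over the 44 genes and 5.88 over all genes. All 3 samples reached 100 for 31 genes, all 3 were under it for 8, and 5 genes had samples on both sides. Without replicate 1 the number above was 17, and without replicate 2 the number below was 4. Over all genes the number above fell from 4569 to 3320 without replicate 1, and the number below from 12955 to 12440 without replicate 2. The plot of each gene by sample shows the values, and the bars by role show where the 28 lie.

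**Figure D1:**
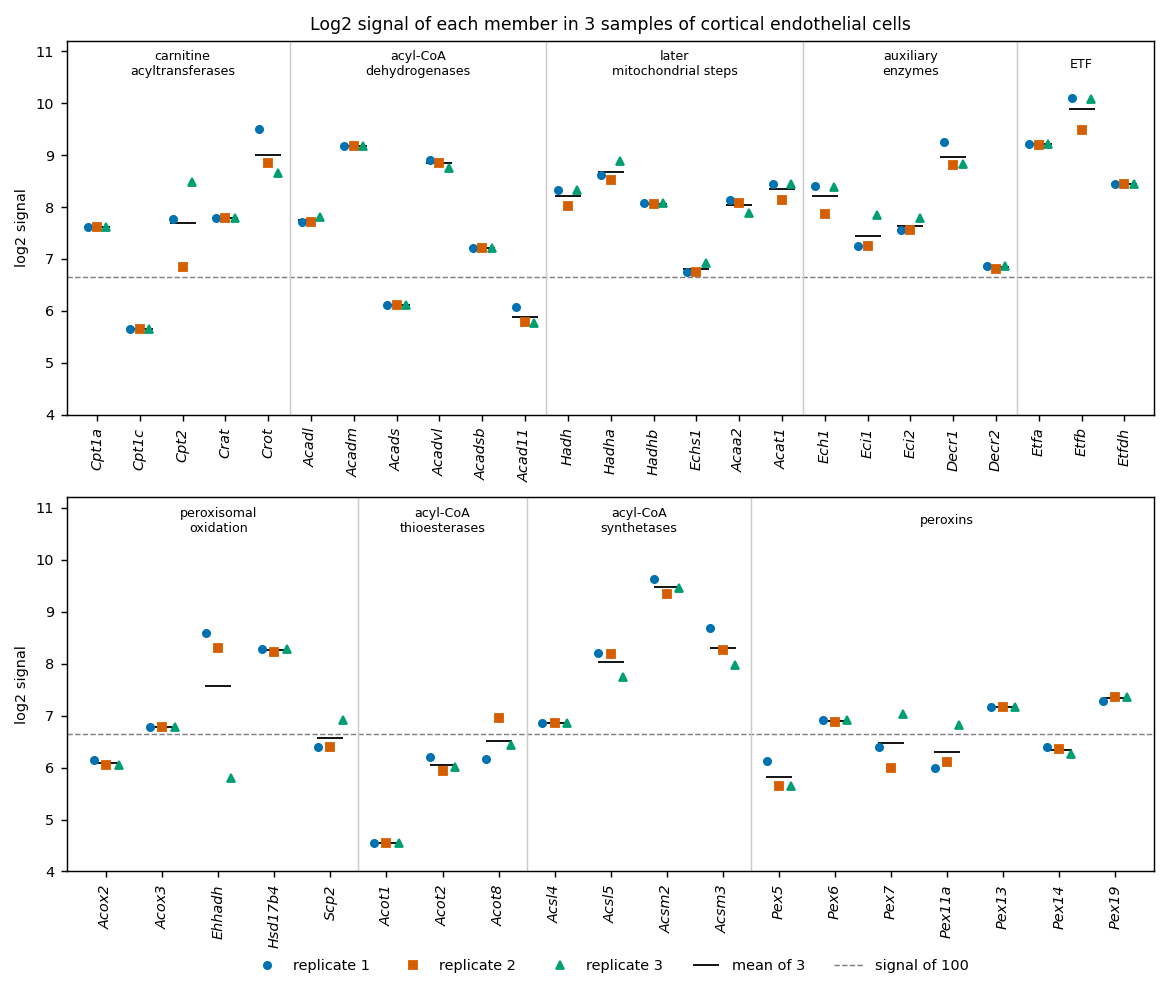
Log2 signal (vertical axis) of the 44 measured genes, grouped by role, in replicates 1, 2 and 3, with the mean of 3 as a black bar and the signal of 100 as a dashed line. All 3 samples lie above the line for 31 genes, and Ehhadh has its replicate 3 at 5.80, far from 8.58 and 8.30.

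**Figure D2:**
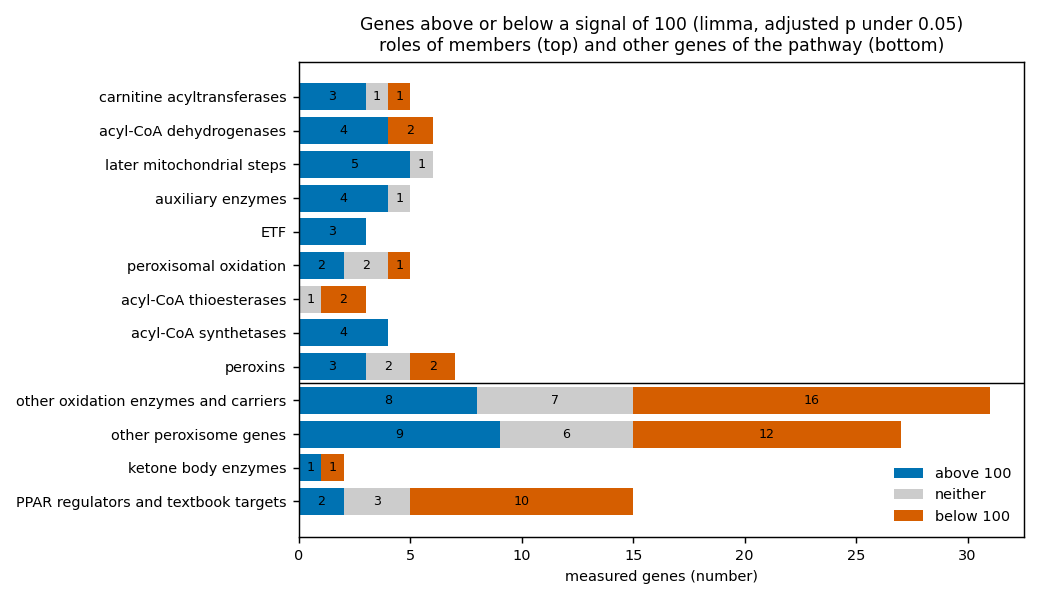
Number of measured genes above 100, below 100 or neither (limma, adjusted p under 0.05) for each role, with the other genes of the pathway under the line. The 3 genes of the electron transfer flavoprotein (ETF) are all above, and 0 of the 3 thioesterases are.

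Many of the deposited values are the same in several samples to all 5 decimals. Such equal values in all 3 samples were found in 51.2% of all genes and in 11 of the 44 measured genes of this set. They give an SD of 0 and a very small p even near the limit. When such probesets were lent the spread of others with a like mean, 25 of the 44 genes were above, against 20.7% of all genes, and the same 8 were below. Acox3, Acsl4, Decr2 and Pex6 were then no longer above, and Eci1 was. Decr2, Pex6 and Eci1 do not have 3 equal values and kept their own spread. Their p moved through the fit shared by all probesets, whose prior degrees of freedom rose from 0.297 to 1.46.

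The sorted cells carried the markers of endothelium and also those of tubules. All 13 endothelial markers were above 100, among them Emcn (endomucin) at a log2 signal of 11.56 ± 0.40 (SD, n = 3) and Cdh5 (VE-cadherin) at 10.62. Of 16 measured proximal tubule markers 12 were above and 0 below (0 at an unadjusted p under 0.05 as well), with Kap at 12.86 ± 0.18 and Keg1 at 11.52 ± 0.08 (SD, n = 3). Their summed signal was 19446, 16957 and 18085 in replicates 1, 2 and 3, and one of them, Slc2a2, lay just over the limit at 6.68. The thick ascending limb had 2 of 5 markers above and the distal convoluted tubule 3 of 4. The collecting duct had 0 of 6 above (2 at an unadjusted limma p under 0.05) and 3 below. Its marker with the highest mean, Atp6v1g3, measured 8.97, 7.62 and 10.13. All 3 samples lay over the limit, but it did not pass the test (limma adjusted p = 0.14). Markers of podocytes (3 of 3), adipocytes (5 of 5), leukocytes (5 of 5) and red cells (3 of 3) were all below. Of smooth muscle and pericyte markers 1 of 6 was above. Their summed signal was 1582 and 1589 in replicates 1 and 2 and 3450 in replicate 3. With the spread of other probesets, 3 of these 6 and 15 of the 16 proximal tubule markers were above. The counts above of the other marker lists stayed the same. What part the tubule RNA has in the signals below was not tested, and the signal of endothelial cells cannot be told apart from that of tubule cells in the same sample. Nor can fewer cells of a type be told apart from less RNA per cell.

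The carnitine acyltransferases were mostly above 100, with 3 of 5 measured genes above, 1 below and 1 neither. Crot, the carnitine octanoyltransferase of peroxisomes, measured 9.51, 8.84 and 8.66 (log2, replicates 1 to 3 in order). All 3 lay well over the limit, replicate 1 being the highest, and the mean was 9.0 ± 0.44 (SD, n = 3; limma adjusted p = 0.0179). Crat, which moves acetyl groups between CoA and carnitine, measured 7.78 in all 3 samples and was above (limma adjusted p = 1.68e-06, and 0.00828 with the spread of other probesets). Cpt1a, the form of the outer membrane enzyme known from liver and the step that sets the rate of long-chain oxidation, measured 7.62 in all 3 samples and was above too. Cpt1c, the form of brain neurons, had 5.66 in each and was below. The study lists Cpt1a among the genes that differed most between its samples, these 3 included, so its level is not independent of that choice.

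Cpt2, which frees the acyl group on the inner side of the inner membrane, varied most in this group. It measured 7.76, 6.85 and 8.48 on the log2 scale. Each value exceeded the limit, but replicate 2 was only just over it. The highest sample was 3.11-fold over the lowest, and the mean of 7.70 ± 0.82 (SD, n = 3) did not pass the test (limma adjusted p = 0.253). The proximal tubule marker Slc5a2, the apical glucose cotransporter, had 8.50, 7.56 and 9.14 in the same order, with its lowest value in replicate 2 and its highest in replicate 3. It was chosen after its values were seen. Of the 16 measured proximal tubule markers 4 had this order, 10 were lowest in replicate 2 alone, and 2, Kap and Slc7a13, were lowest in replicate 3 alone. Whether the tubule share has a part in the spread of Cpt2 was not tested. Without replicate 2 or without replicate 3, Crot was no longer above (limma adjusted p = 0.158 and 0.178), and 2 genes of the group were. These were Cpt1a and Crat, whose equal values left no spread in these fits, so for them this is no check.

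Acyl-CoA dehydrogenases carry out the first step of each mitochondrial cycle, and each is specialised for a chain length. Of 6 genes 4 were above 100 and 2 below. Acadm, for medium chains, measured 9.18 (log2) in all 3 samples (limma adjusted p = 1.68e-06, and 0.000924 with the spread of other probesets). Acadvl, for very long chains, had 8.91, 8.85 and 8.75. Its samples lay within a range of 0.16, and its mean was 8.84 ± 0.08 (SD, n = 3; limma adjusted p = 0.000793). Acadl, for long chains, was nearly as even at 7.72, 7.72 and 7.80, and Acadsb, for short branched chains, measured 7.21 in all 3 samples. All 4 were above under every sample left out. The equal values of Acadm and Acadsb left no spread in any of these fits, so for them this is no check. The same holds for Acadl without replicate 3.

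The dehydrogenases below the limit were Acads and Acad11. Acads, for short chains, measured 6.12 in all 3 samples (limma adjusted p = 2.14e-08, and 0.00953 with the spread of other probesets). Acad11, a dehydrogenase for longer chains, had 6.08, 5.78 and 5.77, with all 3 samples under the limit and the highest in replicate 1. Its mean was 5.88 ± 0.17 (SD, n = 3; limma adjusted p = 0.00823), and it was no longer below without replicate 2 (adjusted p = 0.0669) or without replicate 3 (0.0938).

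Promoter windows were taken from RefSeq on GRCm38.p6, from 250 bases before to 50 bases after each start, and 40 of the 47 genes had at least 1 window, 45 windows in all. The median ratio of observed to expected CpG was 0.691 in these windows and 0.384 in the 32851 windows of all genes. It was 0.73 in 23 windows of genes above 100, 0.547 in 11 of genes below and 0.69 in 8 of genes that were neither. This is a description with no test, and Acox2 and Pex5, both below, have several windows each. The window of Acadl is shown as one with many CpG, at a ratio of 0.932. It lies at chr1:66863260-66863559 on the minus strand, with CG in capitals.
Acadl: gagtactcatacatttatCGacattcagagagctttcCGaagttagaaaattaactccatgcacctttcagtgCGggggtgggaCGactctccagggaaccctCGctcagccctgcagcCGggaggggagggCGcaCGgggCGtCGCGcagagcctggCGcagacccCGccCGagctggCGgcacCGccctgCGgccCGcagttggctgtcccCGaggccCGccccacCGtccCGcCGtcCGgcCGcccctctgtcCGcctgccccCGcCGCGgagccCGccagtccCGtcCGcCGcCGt

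The later steps of the mitochondrial cycle were above 100 in 5 of 6 genes, and 0 were below (0 at an unadjusted p under 0.05 as well). Hadha and Hadhb encode the 2 subunits of the trifunctional protein, which performs the last 3 steps on long chains. Hadha measured 8.61, 8.52 and 8.89, on the log2 scale averaging 8.68 ± 0.19 (SD, n = 3; limma adjusted p = 0.00481). Hadhb had 8.07, 8.06 and 8.07 (limma adjusted p = 1.21e-05), and at its other probeset the samples were also above. The range over the samples was 0.37 for Hadha and 0.01 for Hadhb. The sample that was highest for Hadha thus did not stand out for Hadhb. Hadhb had the same value, 8.07, in replicates 1 and 3, and equal deposited values can narrow a range.

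Hadha and Hadhb are transcribed away from each other, from starts 273 bases apart by the RefSeq windows, and the windows overlap by 228 bases. This shared stretch is printed because it lies before both starts, which are on opposite strands. It lies at chr5:30155003-30155230 (GRCm38.p6) and is given on the plus strand, the strand of Hadhb, with the GGGCGG box in capitals, searched on both strands.
Hadha and Hadhb: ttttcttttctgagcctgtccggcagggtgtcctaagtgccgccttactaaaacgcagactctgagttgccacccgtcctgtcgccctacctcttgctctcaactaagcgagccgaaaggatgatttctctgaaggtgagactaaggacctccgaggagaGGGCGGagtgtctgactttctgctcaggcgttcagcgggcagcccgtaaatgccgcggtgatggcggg

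Acat1, the mitochondrial acetoacetyl-CoA thiolase, measured 8.45, 8.13 and 8.45. The mean was 8.34 ± 0.19 (SD, n = 3; limma adjusted p = 0.0063). Hadh, the short-chain hydroxyacyl-CoA dehydrogenase, had 8.33, 8.01 and 8.32 and was above too. In both genes replicate 2 was the lowest, by about 0.3 on the log2 scale. Acaa2, the thiolase of the cycle, had 8.13, 8.07 and 7.89 and was above. Echs1, the short-chain enoyl-CoA hydratase, had 6.74, 6.74 and 6.93, all over the limit but close to it, and did not pass the test (mean 6.80 ± 0.11, SD, n = 3; limma adjusted p = 0.205). The count above in this group was 1 without replicate 1 and 3 without replicate 2. Hadhb was the gene that was still above without replicate 1.

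Auxiliary isomerases and reductases prepare unsaturated chains for the cycle. Of 5 genes 4 were above 100, 1 was neither and 0 were below (0 at an unadjusted p under 0.05 as well). Decr1, the mitochondrial dienoyl-CoA reductase, measured 9.25, 8.81 and 8.82, on the log2 scale averaging 8.96 ± 0.25 (SD, n = 3; limma adjusted p = 0.00634). Ech1, a dienoyl-CoA isomerase, had 8.41, 7.86 and 8.39, so that replicate 2 was the lowest while for Decr1 replicate 1 was the highest. Its adjusted p was 0.0197 from limma.

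The enoyl-CoA isomerases were higher in replicate 3 than in the other samples. Eci1 had 7.24, 7.24 and 7.84 and did not pass the test (mean 7.44 ± 0.34, SD, n = 3; limma adjusted p = 0.0887), but it was with the spread of other probesets (adjusted p = 0.0345). Eci2 had 7.56, 7.56 and 7.79 and was above. Decr2, the peroxisomal reductase, had 6.86, 6.81 and 6.86. It lay 0.20 over the limit on the log2 scale, and its adjusted p of 0.0121 from limma became 0.118 with the spread of other probesets. The count above in this group was 1 without replicate 1 and 2 without replicate 2 or 3. Without replicate 3 these were Eci1 and Eci2, whose values in replicates 1 and 2 are equal, so for them this is no check.

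The electron transfer flavoprotein takes the electrons of the dehydrogenases and hands them, through its own dehydrogenase Etfdh, to the respiratory chain. All 3 of its genes were above 100. Etfb, the beta subunit, measured 10.09, 9.48 and 10.08, on the log2 scale with replicate 2 the lowest and every sample far over the limit. Its mean was 9.88 ± 0.35 (SD, n = 3; limma adjusted p = 0.00619). Etfa, the alpha subunit, had 9.22, 9.20 and 9.22 (limma adjusted p = 7.19e-06), and Etfdh measured 8.45 in all 3 samples (adjusted p = 1.68e-06, and 0.00221 with the spread of other probesets). Both subunits thus lay over the limit in each sample, but the 0.62 range of Etfb was not seen in Etfa, whose range was 0.02. Etfa had the same value, 9.22, in replicates 1 and 3, and equal deposited values such as those described above can narrow a range. Without replicate 1 or without replicate 3 Etfb was no longer above (limma adjusted p = 0.0894 and 0.14).

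The oxidation enzymes of the peroxisome were divided, with 2 of 5 above 100, 1 below and 2 neither. Hsd17b4, the D-bifunctional protein that hydrates and dehydrogenates very long and branched chains, measured 8.29, 8.22 and 8.29. on the log2 scale The samples lay within 0.06 of each other, and the mean was 8.26 ± 0.04 (SD, n = 3; limma adjusted p = 0.000294). Acox3, an oxidase of branched chains, measured 6.78 in all 3 samples, just over the limit (limma adjusted p = 1.29e-05, and 0.614 with the spread of other probesets, so that 1 of 5 was then above). Acox2, the oxidase of branched chains and bile acid precursors, had 6.14, 6.05 and 6.05 and was below (mean 6.08 ± 0.05, SD, n = 3; limma adjusted p = 0.00122).

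Ehhadh, the L-bifunctional protein and a textbook target of the fatty acid receptor PPAR alpha, varied most of all 44 genes. It measured 8.58, 8.30 and 5.80 on the log2 scale. Replicates 1 and 2 lay clearly over the limit and replicate 3 under it, a range of 2.78 and a 6.88-fold difference. The mean of 7.56 ± 1.53 (SD, n = 3) was neither above nor below (limma adjusted p = 0.69 for the upper side). Its partner in the pathway, Hsd17b4, did not share this pattern, but had the same value, 8.29, in replicates 1 and 3. Equal deposited values such as those described above can narrow a range. No other measured gene of the set lay as far under its own mean in replicate 3 as Ehhadh. Among the proximal tubule markers Slc7a13, an amino acid transporter of the late proximal tubule, was also lowest in replicate 3, at 9.75, 9.34 and 8.0, while Slc5a2 and Gatm were highest there (Gatm had 10.65, 10.39 and 11.04). These 3 markers were chosen after their values were seen. Of the 13 endothelial markers 8 were lower in replicate 3 than in replicate 1, 1 was higher and 4 were equal. Their summed signal was 12903, 13260 and 10885 in replicates 1, 2 and 3. What part any of these cell types has in the value of Ehhadh was not tested. The study lists Ehhadh among the genes that differed most between its samples, these 3 included.

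Scp2, whose longer product is a peroxisomal thiolase and whose shorter product is a sterol carrier, had 6.39, 6.39 and 6.92. Replicates 1 and 2 were under the limit and replicate 3 over it, and the mean of 6.57 ± 0.30 (SD, n = 3) was neither above nor below (limma adjusted p = 0.494 for the lower side).

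Acyl-CoA thioesterases release free fatty acids again. Of the 3 genes 0 were above 100 (0 at an unadjusted p under 0.05 as well), 2 were below and 1 was neither. Acot1, the cytosolic form, measured 4.54 (log2) in all 3 samples (limma adjusted p = 3.54e-10, and 0.000145 with the spread of other probesets). Acot2, the mitochondrial form, had 6.21, 5.94 and 6.02 and was below (mean 6.05 ± 0.14, SD, n = 3; limma adjusted p = 0.00887). The Acot1 and Acot2 transcripts are known to be very similar, so their probesets may read each other's RNA. Acot8, the peroxisomal form, had 6.16, 6.96 and 6.44, with replicate 2 alone over the limit, and was neither. Acot2 was no longer below without replicate 2 (adjusted p = 0.0554) or without replicate 3 (limma adjusted p = 0.106).

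Acyl-CoA synthetases activate fatty acids, and the 4 measured genes were all above 100. Acsm2, a medium-chain synthetase known from the kidney proximal tubule, measured 9.62, 9.34 and 9.45, on the log2 scale with all samples far over the limit. Its mean was 9.47 ± 0.14 (SD, n = 3; limma adjusted p = 0.00144). Acsm3, another medium-chain form, had 8.68, 8.26 and 7.98, highest in replicate 1 and lowest in replicate 3, averaging 8.31 ± 0.35 (SD, n = 3; limma adjusted p = 0.0226). The study put Acsm2 and Acsm3 on its list of genes elevated in these cortical samples, so their calls are not independent evidence. Its authors found that list to resemble proximal tubules and put it down to a minor contamination of the sorted cells.

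The long-chain synthetases were Acsl5 and Acsl4. Acsl5, a form of mitochondria and the endoplasmic reticulum, had 8.20, 8.19 and 7.74 and was above (mean 8.04 ± 0.26, SD, n = 3; limma adjusted p = 0.018). Acsl4, which prefers arachidonic acid, measured 6.86 in all 3 samples, 0.21 over the limit on the log2 scale. Its adjusted p was 6.32e-06 from limma and 0.326 with the spread of other probesets. Leaving out any 1 sample left 2 of the 4 above. Acsl4 was among them each time, but its equal values left no spread in any of these fits, so for it this is no check. Acsm3 lost its call each time, with an adjusted p of 0.0885, 0.19 and 0.16 without replicates 1, 2 and 3. Acsl5 lost it without replicate 1 or 2, and Acsm2 without replicate 3 (adjusted p = 0.0821).

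The first of the 2 Acsm2 windows is shown as the opposite of that of Acadl. It had a CpG ratio of 0.0913 and a GC content of 38.3%, against 58.0% in the median window of the set, and 1 of the 2 TATAAA matches found in the set. It lies at chr7:119554090-119554389 (GRCm38.p6, plus strand), with CG in capitals.
Acsm2: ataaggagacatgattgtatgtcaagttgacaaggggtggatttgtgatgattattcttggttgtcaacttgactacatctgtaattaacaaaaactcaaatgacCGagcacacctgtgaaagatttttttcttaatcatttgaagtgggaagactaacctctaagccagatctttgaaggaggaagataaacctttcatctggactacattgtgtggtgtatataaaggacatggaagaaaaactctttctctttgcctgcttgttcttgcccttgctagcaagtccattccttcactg

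Peroxins were divided, with 3 of 7 above 100, 2 below and 2 neither. Pex19, the chaperone of peroxisomal membrane proteins, measured 7.28, 7.36 and 7.36 on the log2 scale and was above (mean 7.33 ± 0.05, SD, n = 3; limma adjusted p = 0.00239). Pex13, of the docking complex for imported enzymes, measured 7.17 in all 3 samples (limma adjusted p = 2.07e-06, and 0.0494 with the spread of other probesets). Pex6, one of the ATPases that recycle the import receptor, had 6.91, 6.88 and 6.91, and its adjusted p of 0.00348 from limma became 0.0658 with the spread of other probesets, which left 2 above.

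The receptors of import were not above the limit. Pex5, the receptor of the common targeting signal, had 6.12, 5.65 and 5.65 and was below (mean 5.81 ± 0.27, SD, n = 3; limma adjusted p = 0.0173). Pex7, the receptor of the other signal, had 6.40, 6.0 and 7.03, the widest range among peroxins at 1.02, with replicate 3 alone over the limit. It was neither (limma adjusted p = 0.435 for the lower side). Pex14, the docking partner of Pex13, had 6.39, 6.35 and 6.26 and was below (limma adjusted p = 0.00676). Pex11a, which acts in peroxisome division, had 5.99, 6.11 and 6.81, so that here too replicate 3 alone was over the limit. The count above was 1 without replicate 3. This was Pex13, whose equal values left no spread in that fit, so for it this is no check. Pex5 was no longer below without replicate 2 or 3 (adjusted p = 0.101 and 0.136), nor Pex14 without replicate 2 (limma adjusted p = 0.06).

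A range of 1 or more on the log2 scale was found in 3 of the 44 genes (6.82%), Cpt2, Ehhadh and Pex7, against 4.33% of all genes. Among the 32 genes whose mean reached 100 it was found in 2, Cpt2 and Ehhadh, against 9.6% of all genes with such a mean. Without replicate 3 no gene of the set had such a range (0 of 44), and without replicate 2 only Ehhadh did (1 of 44). The range was under 0.1 in 19 of the 44 genes, or 43.2%, against 64.1% of all genes, and 0.5 or more in 11, against 12.8% of all genes. The share with 3 equal values is larger among all genes, as given above.

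Between replicates 2 and 3, of the 32 genes 6 were higher in replicate 2, 17 were higher in replicate 3 and 9 were equal, and after quantile normalization, which breaks the ties, these were 6 and 26. All 6127 genes of the array with such a mean split 1996 against 1894 for this pair as deposited and 1780 against 4339 after quantile normalization, so the majority after it was seen over the whole array. The order of the other pairs depends on the scaling. Between replicates 1 and 2 the split was 19 higher in replicate 1 against 2 higher in replicate 2, and 18 against 14 after quantile normalization. Between replicates 1 and 3 it was 12 against 7 as deposited and turned to 8 against 24 after it. The 6127 genes moved with this scaling too, from 2069 against 1522 between replicates 1 and 2 to 2208 against 3901. Of the 16 proximal tubule markers, as deposited, replicate 1 exceeded replicate 2 in 12 and was exceeded in 2, by 0.15 log2 units in the median, against 0.03 for the 32 genes. Of the 13 endothelial markers 6 were higher and 3 lower, by 0.0 in the median. Between replicates 2 and 3 the proximal tubule markers split 2 against 12, and the endothelial markers 8 against 3. Other tubule segments were low in replicate 2 as well. All 3 thick ascending limb markers with such a mean were lower there than in replicate 1 and in replicate 3. Summed signals in replicates 1, 2 and 3 were 1237, 1004 and 1582 for the distal convoluted tubule and 905, 563 and 1568 for the collecting duct. Whether the markers and the set move from one source was not tested. The plot of deviations shows these samples side by side.

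**Figure D3:**
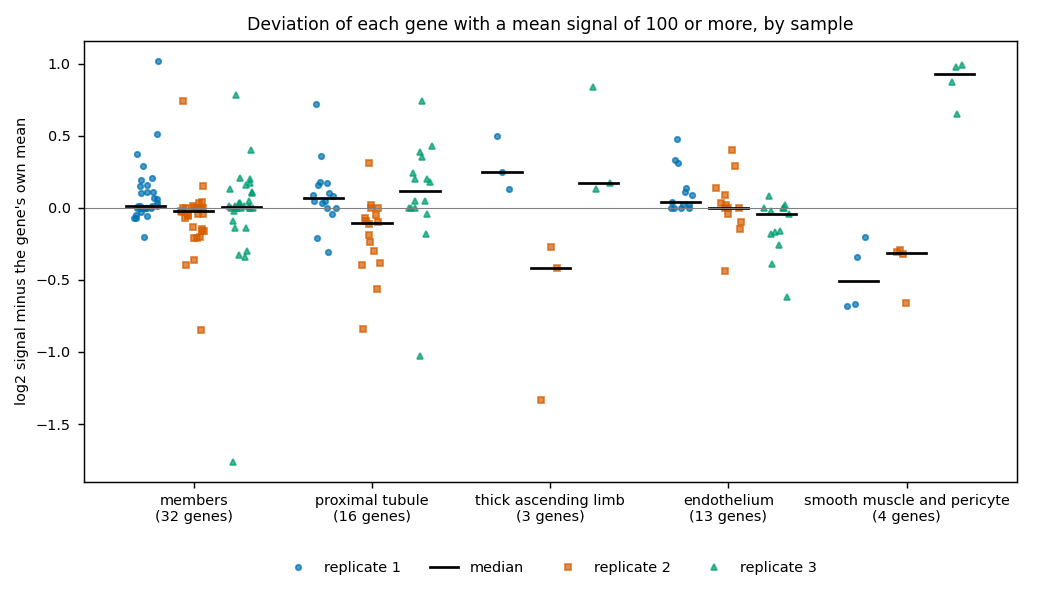
Log2 signal minus each gene's own mean (vertical axis) in replicates 1, 2 and 3, for genes of the set and of 4 marker lists whose mean reached 100, with the median as a black bar. Most of the 32 genes lie close to 0 in each sample, with Ehhadh at -1.76 in replicate 3, while the smooth muscle and pericyte markers are all highest in replicate 3.

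Of 75 measured other genes of the pathway 20 were above the limit (26.7%) and 39 below (52.0%), against 22.9% and 65.0% of all genes. Of 31 other oxidation enzymes and carriers 8 were above and 16 below. Slc27a2, a fatty acid transporter and very long-chain synthetase of the proximal tubule, measured 11.47, 10.92 and 11.31 on the log2 scale (limma adjusted p = 0.00202), and Mmut, the methylmalonyl-CoA mutase of odd-chain breakdown, had 9.33, 9.30 and 9.30. Acot5, a peroxisomal thioesterase, was below at 3.47, 3.47 and 3.84. Of 27 other peroxisome genes 9 were above and 12 below. Phyh, the enzyme of phytanic acid oxidation, had 10.04, 10.00 and 10.04, and Pecr, a peroxisomal enoyl-CoA reductase, had 9.80, 8.82 and 9.38. Uox, urate oxidase, was below at 3.90 in each sample. The count of other oxidation enzymes above was 5 without replicate 3.

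Of 15 regulators and textbook targets of the pathway 2 were above 100, 10 below (66.7%) and 3 neither, a share below that is near the 65.0% of all genes. With the spread of other probesets 3 of the 15 were above and 8 were below. Hnf4a, at 7.62, 7.19 and 7.23, was then above, and Esrra and Cyp4a10 were then neither. In the main fit, of the 8 regulators among the 15, 1 was above, 4 were below and 3 neither. Ppargc1a, the coactivator PGC-1 alpha that drives mitochondrial genes, had 8.40, 8.28 and 8.40 (mean 8.36 ± 0.07, SD, n = 3; limma adjusted p = 0.000914). Plin2, which coats lipid droplets, had 7.82, 7.82 and 8.12 and was above. Ppara itself, the receptor PPAR alpha, had 5.62, 5.30 and 5.88 and was below (limma adjusted p = 0.0124), as was its target Cyp4a14 at 4.73. Without replicate 2 the count above was 1, and it was 4 when a signal of 100 in each sample was asked for with no test, the additional genes being Hnf4a and Rxra. Ppara was chosen after its values were seen. Of 2 measured ketone body enzymes, Oxct1, which lets cells use ketone bodies, was above at 9.48, 9.30 and 9.66 (limma adjusted p = 0.00225), and Bdh1 was below at 5.77 in each sample. The Oxct1 call was lost without replicate 1 or 3.

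**Figure D4:**
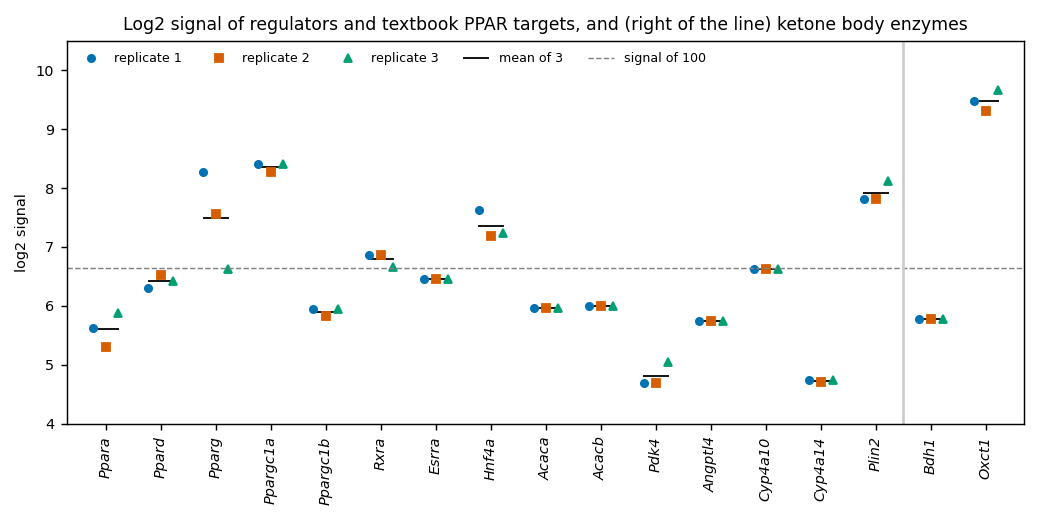
Log2 signal (vertical axis) of 15 regulators and textbook targets of PPAR and, right of the grey line, 2 ketone body enzymes in replicates 1, 2 and 3, with the mean as a black bar and the signal of 100 as a dashed line. Ppargc1a and Plin2 lie over the line in every sample, and Ppara and Cyp4a14 lie under it.

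PPAR and HNF4 receptors bind a repeat of the letters AGGTCA spaced by 1 base, written AGGTCANAGGTCA and called DR1. It was searched on both strands of the 45 windows with up to 2 of its 12 fixed letters changed, and 3 windows held it (6.67%), against 3.86% of all windows. Without changes it was in 0 of the 45 and in 0.0396% of all windows. The 3 sites are shown with the letters that fit the repeat in capitals. They lie at chr14:8258818-8258830 on the minus strand for Acox2, at chr7:140116492-140116504 on the minus strand for Echs1, and at chr9:55512308-55512320 on the plus strand for Etfa.
Acox2: AGGaCAgAGGTgA
Echs1: AGGTCAcgGGTCc
Etfa: AGGgCAaAGGTaA

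Acox2 was below a signal of 100, Echs1 was neither and Etfa was above, so the genes with such a site took all 3 calls. The GGGCGG box of general promoters was in 73.3% of the windows of the set and 35.7% of all windows, CCAAT in 46.7% and 37.4%, and TATAAA in 4.44% and 13.6%. These matches describe the letters of the windows and do not show binding.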

How the data were processed

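Expression was measured on Affymetrix Mouse Gene 1.0 ST arrays in 3 samples, after 1 round of amplification. The authors deposited log2 signals per probeset, summarised and normalized between arrays. RMA in GeneSpring GX is the method stated in the paper, while Affymetrix Expression Console stands in the submitters' processing notes. Its version and the genome build were not given in the sources used here. Such normalization can hide a shift of a whole array. The column medians were 5.70, 5.70 and 5.66, so the columns were not fully equalised among themselves. Precision is limited by there being 3 arrays.

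The table held 35557 probesets, of which 21789 had 1 gene symbol by the probe annotation, 1621 several and 12147 none. Symbols were updated through gene IDs, and 21698 probesets matched the reference table. All probesets were fitted with limma 3.58.1 (R 4.3.3) as an intercept of log2 signal minus log2 of 100, with a variance trend, 2 residual and 0.297 prior degrees of freedom. The paper calls the samples biologically independent, while the labels do not say whether the kidneys came from separate mice. P-values measure the spread between these samples as deposited, which equal values can lower. Of the 44 measured genes of the set, 11 had 3 equal values and 12 had exactly 2. Only probesets with 3 equal values were lent the spread of others.

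Members and lists were chosen with earlier results of these data known. Values by sample are given for the 2 genes with the highest and the 1 with the lowest mean and the 1 with the widest range in each role, and for calls that changed with the spread of other probesets. The same rule for the marker lists was followed in part. Promoter windows came from a RefSeq table and were searched with Python 3.11.15.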

Additional observations from a re-analysis of the deposited data

How the results depend on the processing

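No paired analysis was possible because the samples form 1 group. Dropping the variance trend, quantile normalization and equal column medians changed none of the 44 gene calls. The probeset with the lowest mean could differ only for Hadhb, since the other 43 genes have 1 probeset, and its call was the same. Counts moved with the limit, as they did over all genes, where 4569 were above 100, 10224 above 50 and 1869 above 200, and 12955 below 100 against 8066 below 50. At a limit of 50, the count below was 1, and the counts above were 5 for carnitine acyltransferases, 4 for peroxisomal oxidation, 1 for thioesterases, 20 and 17 for other oxidation and other peroxisome genes, 2 for ketone body enzymes and 12 for regulators and targets. At a limit of 200 the set had 11 above and 21 below, with 1 carnitine acyltransferase, 2 dehydrogenases, 2 later-step genes, 1 auxiliary enzyme, 1 peroxisomal enzyme, 1 synthetase and 0 peroxins above, and 3 other oxidation genes, 5 other peroxisome genes and 1 regulator or target. With the spread of other probesets 1 peroxisomal enzyme was above. Regulators and targets had 1 above at the probeset with the lowest mean and 4 with no test.

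Leaving out 1 sample gave 17 to 20 genes above and 4 to 8 below. It gave 1 to 4 later-step genes, 1 to 2 auxiliary enzymes, 2 synthetases, 1 to 2 peroxins, 5 to 8 other oxidation genes, 0 to 1 ketone body enzymes and 1 to 2 regulators or targets above, and 0 to 3 genes with a range of 1 or more. With 2 arrays the fit has fewer degrees of freedom, which by itself makes fewer calls. The 8 genes above that have 3 equal values keep no spread in any of these fits, so for them this is no check. Calls were gained as well without replicate 3, with Echs1 and Eci1 then above and Pex11a and Scp2 then below. Eci1 and Scp2 have equal values in replicates 1 and 2.

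A limit that moves past a gene turns its direction. On the log2 scale, relative to a limit of 50, Cpt1c lay at 0.02, Acads at 0.47, Acad11 at 0.23, Acox2 at 0.44, Scp2 at 0.93, Acot2 at 0.41, Pex5 at 0.17 and Pex14 at 0.69. Relative to a limit of 200, Cpt1a lay at -0.02, Acadsb at -0.43, Echs1 at -0.84, Eci2 at -0.01, Decr2 at -0.80, Acox3 at -0.86, Acsl4 at -0.79, Pex6 at -0.74, Pex13 at -0.47 and Pex19 at -0.32. Signals near background have no lower bound here, since no detection call was used.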

Other observations

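A range of 1 or more was found in 5 of the 75 other pathway genes, against 4.33% of all genes, and in 3 of the 31 whose mean reached 100, against 9.6%. The 5 genes were named after their values were seen. Pparg, the receptor of fat cells that endothelial cells also use, measured 8.28, 7.56 and 6.62 (log2, replicates 1 to 3 in order), and did not pass the test for a mean above 100 (limma adjusted p = 0.363). Mcee and Pccb, of the breakdown of odd-chain products, had 8.89, 8.04 and 6.95 and 8.42, 8.16 and 7.18. Slc25a17, a carrier of the peroxisomal membrane, had 7.47, 6.69 and 5.75. In these 4 genes replicate 3 was the lowest sample, as it was for Ehhadh. Slc25a20, which carries acylcarnitines into mitochondria between the steps of Cpt1a and Cpt2, had 6.29, 5.94 and 7.03, with its lowest value in replicate 2 and its highest in replicate 3, as Cpt2 had.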
